A study of Mus musculus with 16 samples.

Results

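The genes that encode the proteins of the cytosolic ribosome were followed member by member in sorted microglia. The members are the rows of the deposited table whose gene symbol is that of a cytosolic ribosomal protein (Rpl or Rps with a number, Rplp0 to Rplp2, and Rpsa), without kinase, pseudogene and related-sequence symbols. They are 81 of the 17951 genes listed, 33 of the small (40S) subunit and 48 of the large (60S) subunit. The reference types 80 of them as protein coding and the other, Rps4l, as a transcribed processed pseudogene.

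Ribosomal proteins assemble with ribosomal RNA into the subunits that decode mRNA and join amino acids. Their mRNAs are abundant in most cells, and many begin with a terminal oligopyrimidine (TOP) tract, a C followed by a run of C and T at the transcription start, through which mTOR and the binding protein LARP1 adjust their translation together. A few members have a paralog, a related gene whose protein can take the same place in the ribosome, and most have processed pseudogenes, copies of the spliced mRNA elsewhere in the genome that can share reads with the parent gene.

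Microglia, the resident macrophages of the brain, were taken from mice injected with Methoxy-X04 (Me-X04), a dye that enters the brain and binds amyloid-β (Aβ) aggregates. Live cells positive for CD11b, CD45 and, by the methods of the study, CX3CR1 were sorted from WT mice and from TG mice of the 5xFAD line, which carry mutant human transgenes of familial Alzheimer's disease driven by the neuronal Thy1 promoter. TG cells were sorted by the dye into Me-X04- cells, without detected Aβ, and Me-X04+ cells, which had taken it up. There were 7 libraries of WT, 5 of TG Me-X04- and 4 of TG Me-X04+ cells. Each TG Me-X04+ library carries the same numbered genotype name as the TG Me-X04- library that has its number, and the labels do not say in words that such a pair comes from 1 mouse. The labels give an age of 2 months for WT and of 6 months for TG mice, whereas the methods of the study give ages that lie close together. Genotype and age cannot be told apart in any comparison with WT.

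Each library held between 15623664 and 27579017 reads on the listed genes. The members took between 0.106% and 0.304% of these in WT, between 0.152% and 0.452% in TG Me-X04- and between 0.219% and 0.715% in TG Me-X04+ libraries, and the fewest reads of a member in a library were 14. The share of reads on genes of the mitochondrial genome moved with the groups as well, from 12.6% to 31.3% in WT, from 20.6% to 44.8% in TG Me-X04- and from 31.3% to 56.8% in TG Me-X04+ libraries. Counts and medians with these reads left out of the scaling are given below. Whether the mitochondrial share had a part in the differences was not tested. The libraries also fell into 2 sets along the first principal component of their deviations from the group means, which held 35.9% of that variance. Set A holds WT replicates 1 to 3 and replicates 1 and 2 of both TG groups, and set B holds the other libraries. All 16 libraries fell into the same sets when the members were left out of the component. No label names these sets, and each group has libraries in both.

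The starts of the transcripts are shown first, since the TOP tract is what these mRNAs are known to share. RefSeq entries around the annotated start (GRCm38.p6) were found for 60 of the 81 members. On the sense strand, 12 of the 60 (20%) have a C at the annotated first base followed by at least 4 letters that are C or T, against 2.49% of all 27025 entries. Within 20 bases before to 50 bases after the start, such letters stand in 91.7% of the members and in 64.6% of all entries. Windows of 30 bases, 15 before the start and 15 from the start on, are given for 7 members named in the results that have the tract at the first base, with the tract in capitals, and then for 3 that lack the letters in the wider window as well.
Rps6, chr4:86857353-86857382, minus strand: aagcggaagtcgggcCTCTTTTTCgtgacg
Rpl35, chr2:39005117-39005146, minus strand: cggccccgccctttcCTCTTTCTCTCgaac
Rpl38, chr11:114668565-114668594, plus strand: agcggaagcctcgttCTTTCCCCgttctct
Rps18, chr17:33955651-33955680, minus strand: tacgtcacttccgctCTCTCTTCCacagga
Rpl28, chr7:4792950-4792979, plus strand: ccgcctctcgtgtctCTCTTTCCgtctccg
Rplp2, chr7:141447636-141447665, plus strand: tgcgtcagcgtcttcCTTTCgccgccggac
Rps27, chr3:90213634-90213663, minus strand: atttccgctttcgctCCTTTCCggcggtga
Rpl22, chr4:152325711-152325740, plus strand: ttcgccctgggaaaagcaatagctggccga
Rps28, chr17:33824548-33824577, minus strand: ggtaccgcgtgcggtctcgcgagagcgaaa
Rpl7l1, chr17:46782642-46782671, minus strand: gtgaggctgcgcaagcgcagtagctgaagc
A tract away from an annotated first base may only show that the annotation starts elsewhere. Of the members with the tract at the first base, 3 of 12 were differentially expressed (DE, defined below) between the TG groups, TG Me-X04+ against Me-X04-, with a median log2 fold change (log2FC) of 1.03. Among the members with an entry but without the tract there it was 22 of 48, with a median of 1.14. Of the 21 members without an entry 3 were DE, with a median of 1.06. Of all genes, 3.44% were DE and higher in TG Me-X04+. Whether the tract goes with the difference was not tested.

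All levels are log2 RPKM, that is, reads scaled by gene length and library size, and all differences are log2FC between group means. The mean log2 RPKM of the 81 members in WT libraries was 2.90, 2.86, 2.61, 3.58, 4.00, 3.58 and 3.15 in the order of their numbers. In TG Me-X04- libraries it was 3.23, 3.37, 4.35, 4.17 and 3.40, and in TG Me-X04+ libraries 4.29, 4.56, 5.36 and 4.93. WT and TG Me-X04- libraries overlapped over most of their range. TG Me-X04- replicate 3, at 4.35, stood above the lowest TG Me-X04+ library, at 4.29, whereas within every same-numbered pair the TG Me-X04+ library was the higher. In both TG groups the 2 highest libraries were those of set B with the numbers 3 and 4.

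**Figure D1:**
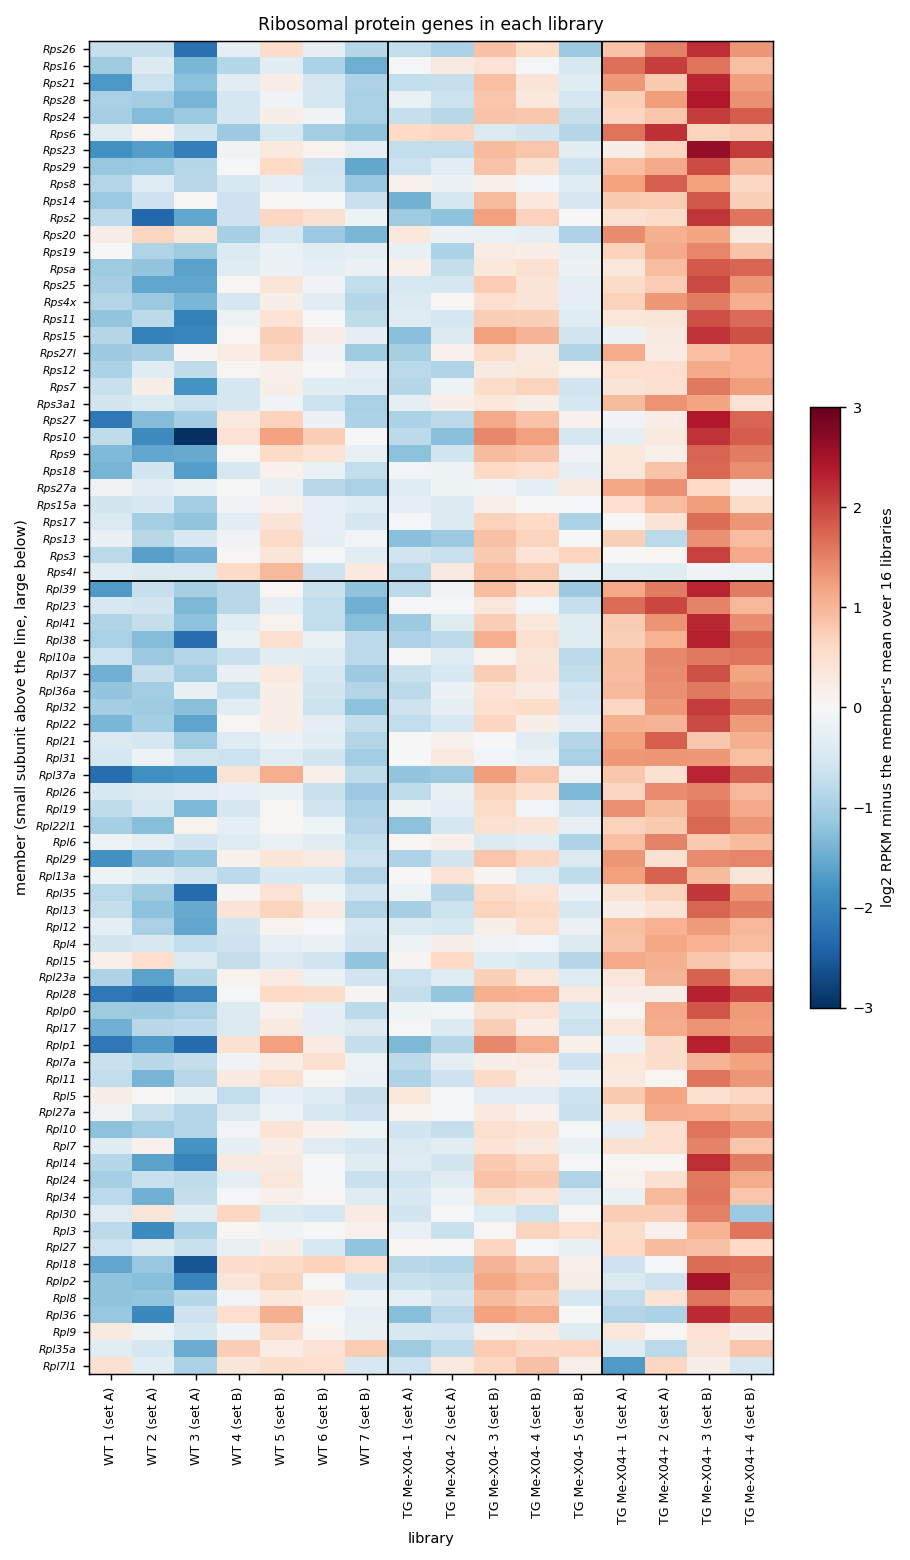
Each row is 1 of 79 members, ordered within the small and the large subunit by its log2FC between the TG groups, and each column is a library with its set. The colour gives the log2 RPKM minus the mean of the member over the 16 libraries. The mean of the TG Me-X04+ columns lies above that of the TG Me-X04- columns for 76 of the 79 members, with single columns that overlap for most of them, and Rps4l and Rpl7l1, at the ends of the subunit blocks, are among the exceptions.

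The comparison of the TG groups asks how microglia that had taken up Aβ differ from those that had not. Between the TG groups, 28 of the 81 members were DE, all 28 higher in TG Me-X04+, by limma with Benjamini-Hochberg adjustment over all genes (adjusted p under 0.05 and absolute log2FC of at least 0.7). Of all genes tested, 3.44% were DE in that direction and 2.06% in the other. The median log2FC of the members was 1.11, against -0.09 over all genes, and 78 members had a positive log2FC, as did 44.4% of all genes. The libraries of the groups did not overlap, with TG Me-X04+ higher, for 29 members and for 4.8% of all genes. Within the 4 same-numbered pairs, 74 members were higher in the TG Me-X04+ library in 4 of 4, as were 15.1% of all genes, and no member was lower in all 4. The median difference of the members within the pairs numbered 1 to 4 was 1.07, 1.26, 1.09 and 0.87. Leaving mitochondrial reads out of the scaling gave 12 DE members, a median of 0.83 over the members and of -0.37 over all genes, and of all genes 309 were then DE and higher and 721 DE and lower, against 617 and 369.

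The members with the largest differences belonged to both subunits. Rps26, a protein of the mRNA exit channel, had 4.51, 4.29, 6.12, 5.79 and 4.13 log2 RPKM in TG Me-X04- libraries and 6.10, 6.75, 7.45 and 6.57 in TG Me-X04+ libraries. Its groups just overlapped, and its log2FC of 1.75 ± 0.49 (SE) gave an adjusted p of 0.0457 by limma. Rpl39, a small protein at the polypeptide exit tunnel, had 3.49, 4.17, 5.21, 4.83 and 3.18 in TG Me-X04- libraries and 5.42, 5.85, 6.55 and 5.85 in TG Me-X04+ libraries. The TG Me-X04+ values of Rpl39 all lay above the others, with a log2FC of 1.74 ± 0.40 (adjusted p = 0.0163 by limma). Rpl23, a large subunit protein that also binds MDM2, had 3.96, 3.93, 4.33, 3.92 and 3.30 in TG Me-X04- libraries and 5.67, 6.02, 5.49 and 5.01 in TG Me-X04+ libraries. The groups of Rpl23 were separate, with a log2FC of 1.66 ± 0.28 (adjusted p = 0.00213 by limma). Rpl41, the smallest ribosomal protein, had a log2FC of 1.60 ± 0.37 (adjusted p = 0.0173 by limma), and its groups did not overlap.

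A term for the sets raised the count of DE members from 28 to 67, with all of the 28 among them, and that of all genes DE and higher in TG Me-X04+ from 617 to 1324. The sets were drawn from the deviations of these same libraries from the group means. A term for them takes out part of the spread that the test uses, so the rise in the counts is not support for the differences.

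**Figure D2:**
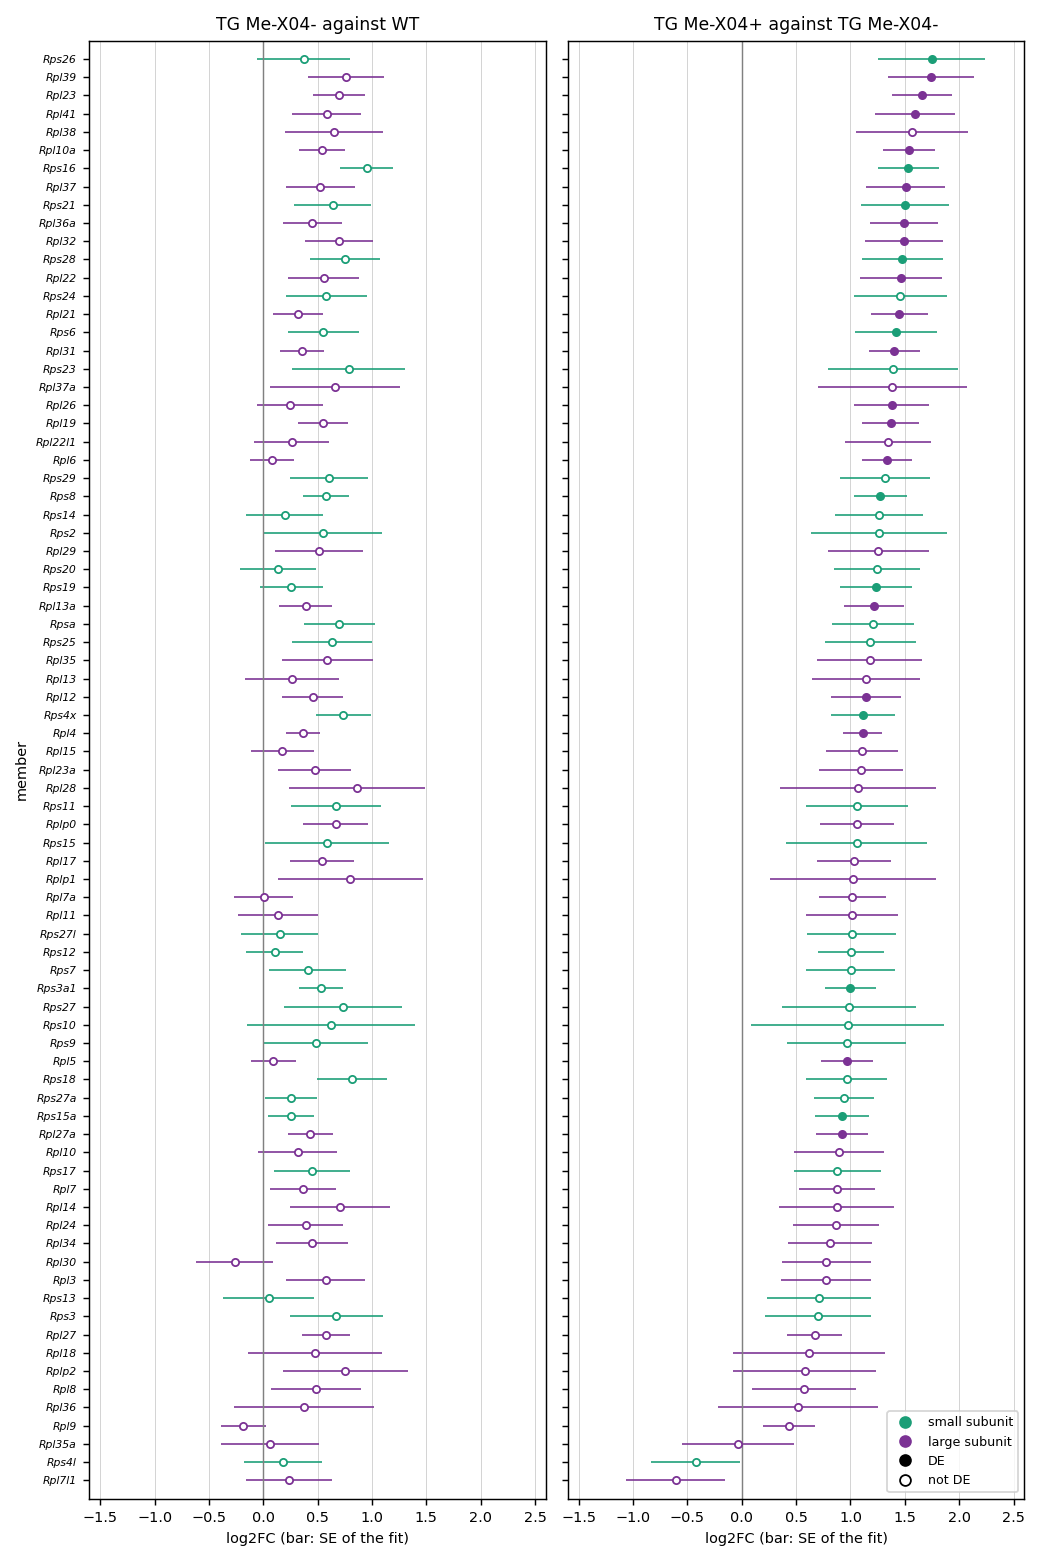
Points give the log2FC of each member for the step from WT to TG Me-X04- and for the step between the TG groups, with bars of 1 SE of the limma fit, filled where the member was DE and coloured by subunit. The step between the TG groups is to the right of 0 for 76 of the 79 members drawn with 28 filled points, and the step from WT for 77 of them with none filled.

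The SE of a member went with the size of its difference between the sets. Set A was lower than set B for 66 members and higher for 15, from -2.16 in Rps10 to 1.03 in Rps6, as the mean over the 3 groups. Rps10, Rpl36, Rplp1 and Rpl28 were each lower by more than 2 in set A, while Rps20, Rpl15, Rpl13a and Rpl5, besides Rps6, were higher by 0.81, 0.70, 0.56 and 0.51. Of these, Rps10, Rps20, Rpl15 and Rpl13a were chosen after their values were seen. Over the 81 members, the SE of the log2FC between the TG groups and the difference between the sets had a Pearson correlation of -0.86. The points share all libraries, and the SE holds the spread between the sets. The same difference had a correlation of -0.42 with the GC content of the principal transcript (80 members) and of -0.04 with the share of the gene's 50-base words that occur in no other gene. What separates the sets was not tested.

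**Figure D3:**
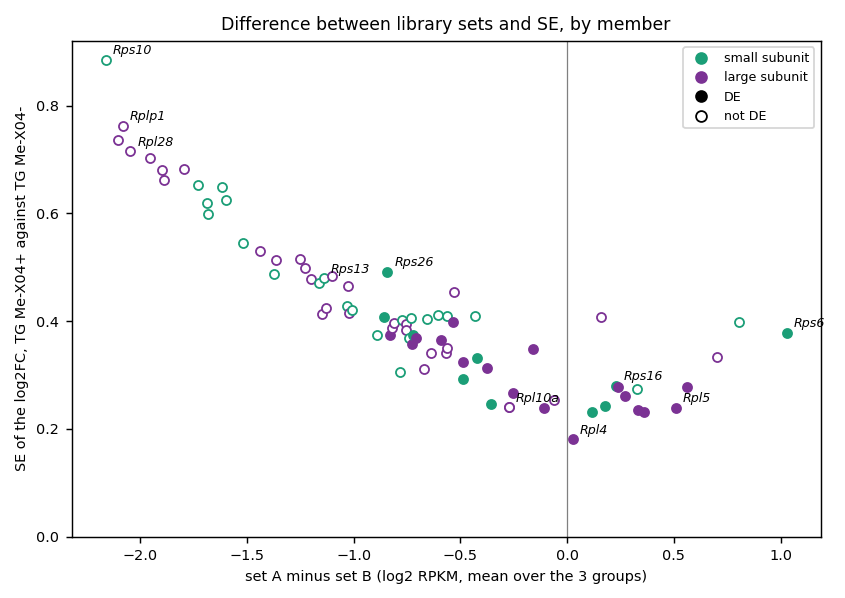
Each point is a member, with its mean difference between set A and set B over the 3 groups (log2 RPKM) on the horizontal axis and the SE of its log2FC between the TG groups on the vertical axis. Filled points are DE. SEs run from 0.18 for Rpl4, near 0 on the horizontal axis, to 0.89 for Rps10, at -2.16.

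Rpl4 had the smallest SE of the members and Rpl10a the lowest adjusted p, and both were named after these values were seen. Rpl10a had 5.07, 4.71, 5.19, 5.45 and 4.28 log2 RPKM in TG Me-X04- libraries and 6.04, 6.53, 6.67 and 6.69 in TG Me-X04+ libraries, with an adjusted p of 0.00125 (log2FC 1.54 ± 0.24, by limma). Rpl4, which lines part of the exit tunnel and had the highest mean level of the members, had 7.00, 7.36, 7.04, 7.07 and 6.73 in TG Me-X04- libraries and 8.01, 8.31, 8.20 and 8.08 in TG Me-X04+ libraries. Neither gene had overlapping groups, and the log2FC of Rpl4 was 1.11 ± 0.18 (adjusted p = 0.00169 by limma). In all, 10 of the 28 DE members were DE in each of the 9 fits that left out a library of either TG group, Rpl10a, Rpl4, Rpl23, Rps16, Rpl19 and Rpl31 among them. Without TG Me-X04- replicate 5 the count fell to 13, without TG Me-X04+ replicate 3 to 14, without TG Me-X04+ replicate 2 to 15 and without TG Me-X04- replicate 1 to 18.

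Both subunits took part. Of the small subunit members 10 of 33 were DE with a median log2FC of 1.12, and of the large subunit members 18 of 48 with a median of 1.10. The mean log2 RPKM of the large minus the small subunit members was -0.05 ± 0.06 (SD, n = 7) in WT, -0.11 ± 0.09 (n = 5) in TG Me-X04- libraries and -0.17 ± 0.08 (n = 4) in those with Aβ, as a description. In single libraries it ran from -0.15 to 0.01 in WT, from -0.22 to 0.00 in TG Me-X04- and from -0.25 to -0.10 in TG Me-X04+, so that neighbouring groups overlapped.

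**Figure D4:**
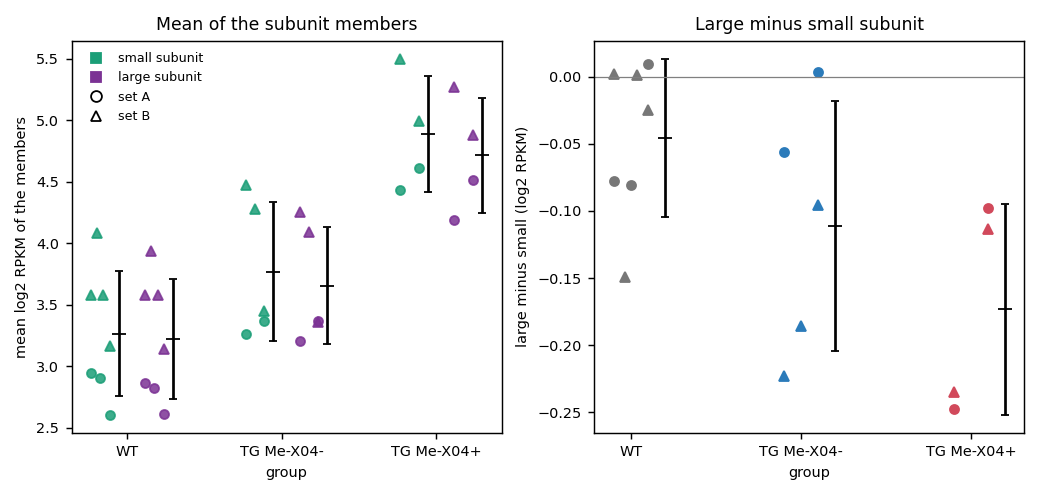
The left panel gives the mean log2 RPKM of the small and the large subunit members in each library by group, and the right panel their difference, large minus small. Circles are set A and triangles set B, with the group mean and SD as black bars. Within each group the set B libraries are the higher, except that for the large subunit TG Me-X04- replicate 5 of set B (3.36) lies just under replicate 2 of set A (3.37), and the difference between the subunits stays between -0.25 and 0.01.

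Within the large subunit, the proteins around the polypeptide exit tunnel (Rpl17, Rpl19, Rpl22, Rpl23a, Rpl26, Rpl31, Rpl35 and Rpl39) had log2FCs from 1.03 to 1.74 with a median of 1.37, and 5 of the 8 were DE. Rpl31, which lies beside the tunnel mouth, had 4.81, 5.11, 4.75, 4.63 and 3.85 log2 RPKM in TG Me-X04- libraries and 6.12, 6.16, 6.11 and 5.73 in TG Me-X04+ libraries. These groups were separate, and its log2FC was 1.40 ± 0.24 (adjusted p = 0.00213 by limma). Rpl19 (log2FC 1.37 ± 0.27), Rpl22 (1.46 ± 0.37) and Rpl26 (1.38 ± 0.35) were DE too, the last with overlapping groups.

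The stalk recruits the translation factors. Of Rplp0, Rplp1, Rplp2 and Rpl12, which anchors it, Rpl12 alone was DE, with a log2FC of 1.14 ± 0.32 (adjusted p = 0.0472 by limma). Rplp2 had 3.16, 3.11, 4.99, 4.83 and 4.02 log2 RPKM in TG Me-X04- libraries and 3.41, 3.22, 6.34 and 5.43 in TG Me-X04+ libraries. Its log2FC of 0.58 ± 0.66 came to 0.18 in set A and 1.27 in set B, and to -0.0015 without TG Me-X04+ replicate 3. Rplp0 and Rplp1 had log2FCs of 1.06 ± 0.34 and 1.02 ± 0.76 and were not DE (adjusted p of 0.0829 and 0.525 by limma).

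Rpl5 and Rpl11 form a particle with 5S ribosomal RNA that can also bind MDM2 outside the ribosome. Rpl5 had 4.57, 4.22, 3.92, 3.94 and 3.60 log2 RPKM in TG Me-X04- libraries and 5.03, 5.43, 4.72 and 4.88 in TG Me-X04+ libraries, and was DE with a log2FC of 0.97 ± 0.24 (adjusted p = 0.0248 by limma). Rpl11 had a log2FC of 1.02 ± 0.42 and was not DE (adjusted p = 0.195 by limma). Their steps from WT to TG Me-X04- were 0.09 and 0.14, under the median of the members.

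In the small subunit, 5 proteins of the mRNA exit had log2FCs from 1.21 to 1.75, and Rps26 and Rps28 were DE. Rps28, one of the smallest members, had 1.89, 1.46, 2.94, 2.42 and 1.59 log2 RPKM in TG Me-X04- libraries and 2.82, 3.35, 4.50 and 3.48 in TG Me-X04+ libraries. The lowest TG Me-X04+ library of Rps28 lay just under the highest TG Me-X04- library, and its log2FC was 1.48 ± 0.37 (adjusted p = 0.0278 by limma). Of the mRNA entry proteins, Rps2 and Rps3 had log2FCs of 1.26 ± 0.62 and 0.70 ± 0.49, neither of them DE.

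Rps6, the ribosomal target of the S6 kinases downstream of mTOR, had 5.44, 5.48, 4.40, 4.29 and 3.97 log2 RPKM in TG Me-X04- libraries and 6.45, 7.02, 5.51 and 5.58 in TG Me-X04+ libraries. It was higher in set A than in set B in each group, unlike most members, and the TG Me-X04+ values lay above all others. Its log2FC was 1.42 ± 0.38 (adjusted p = 0.0349 by limma). Rps27a, made as a fusion with ubiquitin, had a log2FC of 0.94 ± 0.27 (adjusted p = 0.0534 by limma), with 1.53 in set A and 0.40 in set B. Rps16, whose tail reaches the tRNA in the P site, was DE with a log2FC of 1.53 ± 0.28 (adjusted p = 0.00377 by limma).

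The lowest log2FCs between the TG groups were those of Rpl7l1, Rps4l, Rpl35a, Rpl9 and Rpl36. Rpl7l1, a paralog of Rpl7 linked to ribosome assembly, had 1.08, 2.02, 2.34, 2.59 and 1.87 log2 RPKM in TG Me-X04- libraries and 0.03, 2.33, 1.89 and 1.22 in TG Me-X04+ libraries, with a log2FC of -0.61 ± 0.45. Rps4l had a log2FC of -0.43 ± 0.41 and Rpl35a, a large subunit protein mutated in some Diamond-Blackfan anaemia families, of -0.03 ± 0.51. None of the 3 was DE, and the sign of Rpl35a depended on the setting. Rpl9, a large subunit protein, had 2.56, 2.54, 3.19, 3.29 and 2.69 log2 RPKM in TG Me-X04- libraries and 3.39, 3.08, 3.48 and 3.21 in TG Me-X04+ libraries, with overlapping groups and a log2FC of 0.43 ± 0.24. Rpl36, at 0.52 ± 0.74, had 0.13 in set A and 1.27 in set B.

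The step from WT to TG Me-X04- asks how far the TG cells that hold no detected Aβ had moved. None of the 81 members was DE by limma, against 0.201% of all genes (0.189% higher and 0.0111% lower), and 15 members (18.5%) had an unadjusted p under 0.05 against 5.18% of all genes. The median log2FC was 0.51, against 0.01 over all genes, and 79 members had a positive log2FC, as did 51.6% of all genes. No member, and 0.652% of all genes, had TG Me-X04- libraries that all lay above WT. A fit with library weights called Rps16 alone, and limma voom on the recovered reads called none. The small subunit members had a median of 0.56 and the large subunit members of 0.46.

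Among the largest steps from WT were those of Rps16 at 0.95 ± 0.24, Rpl28 at 0.86 ± 0.62, Rps18 at 0.81 ± 0.32 and Rplp1 at 0.80 ± 0.67. Rps16 had 3.14 at the lowest, 3.64 at the median and 4.28 at the highest in WT, and 4.57, 4.86, 5.02, 4.56 and 4.12 log2 RPKM in TG Me-X04- libraries. TG Me-X04- replicate 5 alone fell within the WT range, and the adjusted p was 0.218 by limma, the lowest of any member in this comparison. Rps18, a protein in the head of the small subunit, had 0.79, 1.89 and 2.56 at the lowest, median and highest in WT and 2.36, 2.29, 3.05, 2.91 and 2.15 in TG Me-X04- libraries, with groups that overlapped. For Rpl28, a large subunit protein, the step was 1.21 in set A, against 0.51 in set B.

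Below 0 in this step were Rpl30, at -0.27 ± 0.36, and Rpl9, at -0.18 ± 0.21. Next to them, Rpl7a, Rps13 and Rpl35a, at 0.00, 0.05 and 0.06, changed sign with the setting or the library left out. The median of the members fell to 0.31 without TG Me-X04- replicate 3, and stayed between 0.31 and 0.61 over all fits that left out a library of WT or TG Me-X04-. In TG Me-X04- libraries the members stood highest in replicates 3 and 4, the numbers whose TG Me-X04+ libraries were the highest of that group.

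Over the whole range from WT to TG Me-X04+, 62 of 81 members were DE and higher, against 8.25% of all genes in that direction, and none lower. The median log2FC was 1.60, against -0.11 over all genes. The 2 comparisons with TG Me-X04+ share its libraries, and all 28 members that were DE between the TG groups were among the 62. A positive log2FC was found for 79 members and 44.1% of all genes, and groups without overlap, higher in TG Me-X04+, for 47 members and 6.56% of all genes. The group means were lowest in WT and highest in TG Me-X04+, with the other TG group between, for 76 members and for 23.9% of all genes. For 77 members the step between the TG groups was the larger of the 2 steps, which share the TG Me-X04- libraries. Rpl39 rose most, by 2.50 ± 0.37, from 2.58, 3.45 and 4.33 at the lowest, median and highest in WT to the TG Me-X04+ values given above, all above the WT range. Rps16 followed with 2.48 ± 0.26, the lowest adjusted p of any member (8.26e-06 by limma), then Rpl23 with 2.35 ± 0.26, Rps28 with 2.23 ± 0.35 and Rpl38, a small protein of the large subunit, with 2.21 ± 0.48. At the other end stood Rpl7l1 (-0.37 ± 0.42), Rps4l (-0.24 ± 0.38), Rpl35a (0.03 ± 0.48), Rpl9 (0.25 ± 0.22) and Rpl30 (0.51 ± 0.38), none of them DE.

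The members lie on 19 chromosomes, with 14 on chromosome 7 and 4 on the X chromosome. The 4 X-linked members Rpl10, Rpl36a, Rpl39 and Rps4x had log2FCs between the TG groups from 0.89 to 1.74, 3 of them DE, and those on chromosome 7 had a median of 0.94, 5 of them DE. Of all members 34.6% were DE, and of all genes 3.44% were DE and higher. The counts by chromosome are a description and were not tested.

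For the paralogs, the log2 ratio of the RPKM of the paralog to that of its parent was taken within each library and compared by exact two-sided permutation tests, adjusted over the 12 tests of 6 pairs and 2 comparisons. None of the 12 passed at an adjusted p under 0.05. The smallest p that 5 libraries against 4 can give is 0.0159. A single pair at that exact permutation p adjusts to 0.190 over the 12 tests, so between the TG groups 1 pair alone could not pass.

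Rps4l and its parent Rps4x diverged most. Their log2 ratio was -4.63, -3.53 and -3.18 at the lowest, median and highest in WT, -4.73, -4.09, -3.93, -3.96 and -4.27 in TG Me-X04- libraries and -5.38, -6.00, -6.00 and -5.57 in TG Me-X04+ libraries. All TG Me-X04+ libraries lay below all others, a difference of -1.54 between the TG groups (exact permutation p = 0.0159, adjusted p = 0.190). Rps4x itself, from 4.73, 5.18, 5.65, 5.54 and 4.88 to 5.85, 6.46, 6.71 and 6.24, was DE with a log2FC of 1.12 ± 0.29 (adjusted p = 0.0327 by limma). Rps4l had between 14 and 83 reads in a library and lay near the lowest level of the members throughout.

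The ratio of Rpl7l1 to Rpl7 was -1.76, -0.92, -1.35, -0.96 and -1.21 in TG Me-X04- libraries and -3.70, -1.44, -2.87 and -2.88 in TG Me-X04+ libraries. It overlapped through TG Me-X04+ replicate 2 and differed by -1.48 (exact permutation p = 0.0317, adjusted p = 0.190). From WT, at -2.00, -0.89 and -0.70 for the lowest, median and highest, to TG Me-X04- it differed by -0.13. Rpl7 itself had a log2FC of 0.87 ± 0.35 between the TG groups and was not DE, although its groups did not overlap.

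For the other paralogs the ratio differed less between the TG groups. Rpl22l1, which can replace the RNA-binding Rpl22, had a log2FC of 1.35 ± 0.39 between the TG groups (adjusted p = 0.0555 by limma) beside 1.46 ± 0.37 for Rpl22, and their ratio differed by -0.12 (exact permutation p = 0.476). Rps27l, a p53 target, had a log2FC of 1.01 ± 0.41 beside 0.99 ± 0.62 for Rps27, and their ratio had SDs of 0.77 in TG Me-X04- libraries and 1.15 in TG Me-X04+ libraries, beside a difference of 0.02. Rpl36al, which the symbol rule leaves out, had a log2FC of 1.11 ± 0.27 (adjusted p = 0.0210 by limma) beside 1.49 ± 0.31 for Rpl36a (adjusted p = 0.00969 by limma). Its ratio to Rpl36a was 2.61 ± 0.43 (SD, n = 7) in WT, 2.18 ± 0.45 (n = 5) in TG Me-X04- libraries and 1.81 ± 0.21 (n = 4) in TG Me-X04+ libraries, and neither step passed (exact permutation p of 0.109 and 0.175).

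Rps27rt, a retrogene of Rps27 that is also outside the rule, stood higher than Rps27 by 3.39 to 4.18 on the log2 RPKM scale in every library. Of the 50-base words of the Rps27 transcripts, 1.35% occur in no other gene, so how reads were divided between both loci is uncertain. The table's gene length for Rps27, which sets the RPKM scale, is 3.02 times that of its principal transcript. Their ratio differed by 0.28 between the TG groups (exact permutation p = 0.143).

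**Figure D5:**
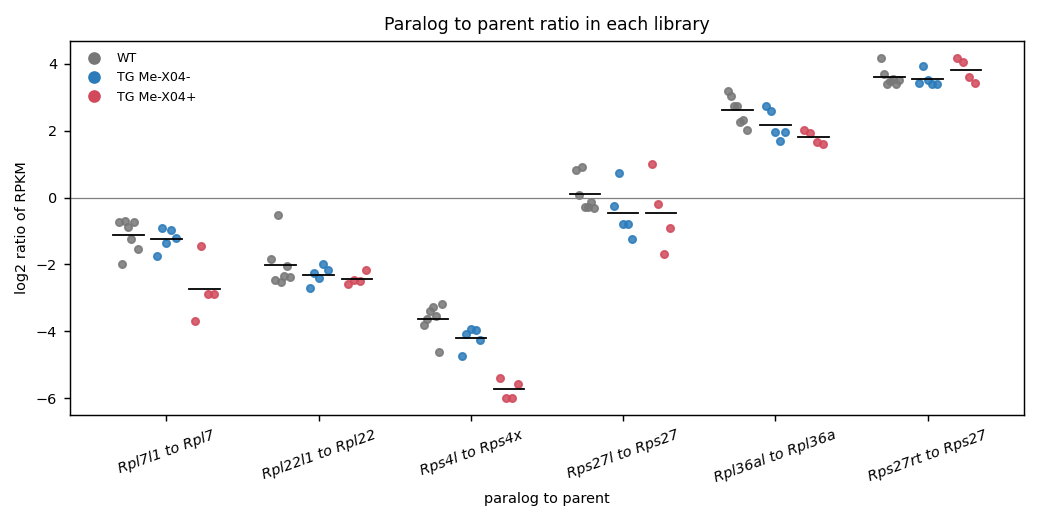
Points give the log2 ratio of the RPKM of a paralog to its parent in each library, coloured by group, with group means as bars. The TG Me-X04+ points of Rps4l to Rps4x, from -6.00 to -5.38, lie below those of both other groups, and Rpl36al and Rps27rt lie above 0 in all libraries.

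Shared sequence limits what a single value says. Over the 81 members, the share of 50-base words found in no other gene was lowest in Rps27 at 1.35%, with a median of 40%, and the median member shared words with 8 processed pseudogenes. Of the members with under 25% of such words, 27 in number, the median log2FC between the TG groups was 1.02, in the 25 members from 25% to 50% it was 1.12 and in the 29 above 50% it was 1.14. Over all 81 members the Pearson correlation of the log2FC with this share was 0.01, and with the mean level 0.41, over values from the same libraries. The gene length used for RPKM exceeded that of the principal transcript for most members, by a factor of 2.00 at the median and up to 9.78, so that levels of different members are not comparable at face value.

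Parts of the ribosome that carry other symbols moved in the same direction. Fau, which yields a small subunit protein, had 4.20, 4.36, 5.39, 5.12 and 4.02 log2 RPKM in TG Me-X04- libraries and 5.61, 5.88, 6.40 and 5.92 in TG Me-X04+ libraries, with no overlap and a log2FC of 1.34 ± 0.31 (adjusted p = 0.0188 by limma). Rack1, a scaffold on the small subunit, was DE with a log2FC of 0.97 ± 0.25 (adjusted p = 0.0288 by limma). From WT to TG Me-X04- neither of them was DE.

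Other mRNAs known for a TOP tract were taken as a list of 14. Between the TG groups 6 of them were DE and higher, against 3.44% of all genes, and none lower. All 14 had a positive log2FC, as did 44.4% of all genes, and the median was 0.92, against -0.09 over all genes. From WT to TG Me-X04- none was DE, against 0.201% of all genes, and the median was 0.38, against 0.01. Eef1a1, the elongation factor that delivers tRNA, had 7.18, 7.33, 7.26, 7.14 and 6.92 log2 RPKM in TG Me-X04- libraries and 8.40, 8.76, 8.77 and 8.57 in TG Me-X04+ libraries. These groups did not overlap, with a log2FC of 1.46 ± 0.18 (adjusted p = 0.000259 by limma). Tpt1 (1.42 ± 0.24), Eef1b2 (1.29 ± 0.28), Eef2 (1.18 ± 0.28), Pabpc1 (1.04 ± 0.18) and Eif4b (0.91 ± 0.20) were the other DE genes, while Naca, at 0.22 ± 0.29, was not DE.

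The factors that make ribosomes were followed as a list of 31. Of these 30 were in the table, none was DE between the TG groups by limma, with 4 at an unadjusted p under 0.05, as were 18.7% of all genes, and the median log2FC was 0.09. Npm1, a nucleolar chaperone, stood apart with 5.73, 5.77, 4.30, 4.24 and 3.75 log2 RPKM in TG Me-X04- libraries and 7.35, 7.41, 5.56 and 5.56 in TG Me-X04+ libraries, higher in set A in both groups. Its log2FC of 1.71 ± 0.54 was not DE (adjusted p = 0.0789 by limma). Against WT, Npm1 and Ncl were the 2 of 30 biogenesis factors DE and higher in TG Me-X04+, by 1.92 ± 0.51 and 0.92 ± 0.26. Of all genes, 8.25% were DE in that direction, so the count of the list is not above that share. None of 10 regulators of ribosomal protein mRNAs was DE between the TG groups, with 2 at an unadjusted p under 0.05 against the same 18.7%, and their log2FCs ran from -0.82 to 0.43. Among them were Mtor (-0.01 ± 0.21), its partner Rptor (-0.61 ± 0.23), Larp1 (0.43 ± 0.19) and Myc (0.07 ± 0.38). Rptor had 3.09, 3.12, 3.34, 3.33 and 3.35 log2 RPKM in TG Me-X04- libraries and 2.34, 2.49, 2.37 and 3.35 in TG Me-X04+ libraries, of which 1 was as high as the TG Me-X04- libraries. The summed level of the 10 regulators was taken as CPM, counts scaled to a fixed total of all reads on the listed genes, mitochondrial reads included. It had a median of 629 CPM in TG Me-X04- libraries (457 to 705) and of 395 in TG Me-X04+ libraries (303 to 511), with groups that overlapped. This scale differs from that of the log2FCs above, and the part of the mitochondrial share in it was not tested.

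Markers of the sorted and of other cells were summed per library as RPM, reads scaled to a fixed total of all reads on the listed genes. Mitochondrial reads are included in that total, which differs from the scaled library size behind the log2FCs. The part of the mitochondrial share in these sums was not tested. The 9 microglial markers, all in the table, took 17623 to 22379 in WT, 15898 to 19928 in TG Me-X04- and 10918 to 15618 in TG Me-X04+ libraries, and Tmem119 alone was DE between the TG groups (log2FC -1.58 ± 0.32, adjusted p = 0.00821 by limma). Of 5 neuronal markers 3 were in the table, with 3.57 to 11.8 in WT, 3.96 to 6.10 in TG Me-X04- and 0.386 to 2.61 in TG Me-X04+ libraries. Astrocyte (3 of 5), oligodendrocyte (4 of 5), endothelial (2 of 4), border macrophage (4 of 4), monocyte and neutrophil (3 of 6) and lymphocyte markers (2 of 6) each summed to at most 96.9 in any library. Slc17a7, Gad1, Aldh1l1, Gja1, Mog, Cldn5, Ly6c1, Ly6c2, Ly6g, Plac8, Cd3e, Cd3g and Nkg7 were not analysed here. Border macrophage markers reached 5.95 to 45.1 in TG Me-X04+ against 8.83 to 26.5 in TG Me-X04- libraries, and monocyte and neutrophil markers 4.77 to 11.0 against 8.02 to 25.4. Their part in the differences of the members was not tested. In such bulk libraries, a change in RNA per cell and a change in the mix of cells cannot be told apart.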

How the data were processed

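Per the submitters' processing notes and the study's methods, Trim Galore 0.4.4 was used for trimming, STAR 2.5.4b for alignment to GRCm38, featureCounts for counting, and edgeR 3.24.3 for a filter on low genes and TMM scaling. The authors deposited log2 RPKM values for 17951 genes in 16 libraries with the gene lengths used. They also deposited their own comparisons (log2 fold changes, p-values and score columns), which were not used here. Part of the samples was sequenced on another instrument with longer reads, and the sources used here do not say which.

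Members were found by the deposited symbol. The members, gene lists and tests were chosen with earlier results of these data known. The log2 RPKM values entered limma 3.58.1 under R 4.3.3 (variance trend, 3 groups, no covariate, all 16 libraries). Tests were two-sided, adjusted over all genes, with thresholds of 0.05 and 0.7. The fits were also checked on simulated data, with noise drawn independently for each gene and library. That check held no library sets, so it does not cover error rates where libraries fall into sets. P-values measure the spread between these libraries, which may be technical in part. Read numbers were worked back from the RPKM, the gene lengths and the size of the step that a single read makes in a library (100% of values whole within 0.01), and gave depths and a count alternative (limma voom) that called 36, 0 and 67 members for TG Me-X04+ against TG Me-X04-, TG Me-X04- against WT and TG Me-X04+ against WT. The named genes are both genes of each paralog pair, the 5 highest and 5 lowest members of each comparison, fixed functional groups and ribosomal parts outside the rule. Values of some genes that this rule or the lists name are not reported here, and figures that name members draw 79 of the 81. Others are said to have been chosen after their values were seen, or belong to fixed lists. Words of 50 bases were compared over all transcripts of a later Gencode annotation on GRCm38, and start sites were read from RefSeq. A common multimap limit of the aligner means that reads from copies may be divided or lost. Permutation tests used scipy 1.17.1.

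Same-numbered TG libraries carry the same numbered genotype name in the labels. Their deviations from the group means correlated with r from 0.292 to 0.329, but pairs of TG libraries with other numbers reached 0.332 where both were of 1 library set, so the correlation does not tell a shared number from a shared set. WT numbers name other animals. Alternatives were other variance models, library weights, scalings, pseudocounts, a filter on low values, 2 groups only, the replicate block, a term for the library sets, and leaving out each library. The intervals that counting alone gives were not computed, since all comparisons rest on the spread between libraries.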

Additional observations from a re-analysis of the deposited data

Results flagged for a closer look

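In groups of 4 to 7 libraries, 6 of 174 groups of values held a library far from the others by Dixon's ratio, and chance alone gives about 1 in 20. Rpl7 stood at 1.48 log2 RPKM in WT replicate 3, with the other WT libraries from 2.78 to 3.47. In the same library the log2 ratio of Rpl22l1 to Rpl22 was -0.51, with the others from -2.51 to -1.84. The log2 ratio of Rps27rt to Rps27 was 4.17 in WT replicate 1, above 3.39 to 3.71 in the other WT libraries, and 3.93 in TG Me-X04- replicate 2, above 3.39 to 3.52 in the other libraries of that group. Rpl31 stood at 5.73 in TG Me-X04+ replicate 4, under 6.11 to 6.16 in the others, and Rps14 at 5.06 in TG Me-X04+ replicate 3, above 3.91 to 3.98 in the others.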

How the results depend on the processing

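The median log2FC of the members, and that of each subunit, kept its direction in all 3 comparisons under every alternative run. The count of DE members between the TG groups, 28, was 12 under quantile normalization, 12 with scaling by reads outside mitochondrial genes, 12 with scaling that also left out the members, 12 with only the 2 groups in the fit, 67 with a term for the library sets, 2 with only set A and 47 with only set B. Of all genes, 617 were DE and higher in that comparison, against 421 under quantile normalization, 309 with scaling outside mitochondrial genes, 1324 with the set term, 63 in set A and 1328 in set B. The fits within a set and the scaling without members were chosen after seeing the data, and fewer libraries enter the fits of a set. The sets behind the set term were drawn from the deviations of these same libraries, so its higher counts are not support for the differences. The count lay between 13 and 29 when a library was left out, with the low counts without the libraries named in the report. From WT to TG Me-X04- the count was 1 with array weights (Rps16) and 0 under each other alternative. The replicate block gave 31, 0 and 68 members in the 3 comparisons, against 28, 0 and 62, with 23 of the 28 among the 31. It changed no count by over 1.5 times. It takes WT numbers, which name other animals, as blocks too.

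These signs turned. Between the TG groups Rpl35a (-0.03) was 0.00065 with median centring, 0.0076 under quantile normalization, 0.10 with the replicate block, 0.11 with the set term and 0.32 in set A. From WT to TG Me-X04-, set A gave -0.15 for Rpl22l1, -0.092 for Rpl26, -0.14 for Rpl35a, -0.67 for Rps13, -0.38 for Rps14 and -0.046 for Rps27a, the replicate block gave -0.0077 for Rpl5, and Rpl7a was -0.19 with array weights, -0.011 with median centring, -0.017 with the set term, -0.020 with limma voom and -0.18 in set B. From WT to TG Me-X04+, Rpl35a was -0.087 with array weights, -0.13 with scaling outside mitochondrial genes and -0.12 when members were left out too, and Rps4l was 0.047 in set A. For the paralogs, Rpl22l1 to Rpl22 from WT to TG Me-X04- was 0.13 in set B, Rps27rt to Rps27 was 0.014 there on log2(RPKM + 1), and Rps27l to Rps27 between the TG groups was -0.0090 on log2(RPKM + 1), -0.36 in set B and -0.17 within the pairs of the replicate block. The cause was not tested.

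With a library left out, the log2FC between the TG groups ran from -0.30 to 0.24 for Rpl35a, from -0.038 to 1.02 for Rpl36 and from -0.0015 to 1.04 for Rplp2. From WT to TG Me-X04- it ran from -0.059 to 0.32 for Rpl11, from -0.18 to 0.33 for Rpl35a, from -0.040 to 0.20 for Rpl5, from -0.12 to 0.13 for Rpl7a, from -0.21 to 0.32 for Rps13, from -0.10 to 0.49 for Rps14 and from -0.034 to 0.35 for Rps27l. From WT to TG Me-X04+ it ran from -0.24 to 0.30 for Rpl35a and from -0.69 to 0.076 for Rpl7l1. The ratio of Rps27l to Rps27 between the TG groups ran from -0.46 to 0.44, and from WT to TG Me-X04- that of Rpl7l1 to Rpl7 from -0.27 to 0.0046 and that of Rps27rt to Rps27 from -0.17 to 0.019. The step of Rps4l to Rps4x from WT to TG Me-X04- ran from -0.72 to -0.42. Without WT replicate 6 (-0.72) its adjusted p was 0.026 by the exact permutation test. That p was adjusted over fewer tests than the adjusted p of 0.242 with all libraries. The value of 0.026 therefore does not show that the step would pass the full adjustment. Over the named members, 1287 of these values with a library left out kept direction and call, 72 lost and 18 gained the call and 31 turned sign. At 14 to 83 reads, Rps4l is the member that depth limits most.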
